A study of Mus musculus with 6 samples.

Results

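The 10 integrin subunits described here were Itga2, Itga3, Itga5, Itga6, Itgav, Itgb1, Itgb3, Itgb4, Itgb5 and Itgb7. They were matched by symbol, and all 10 were found among the 53801 genes of the tables. The libraries came from CT26, a mouse colon carcinoma line of the BALBc strain, in 3 lines with 2 libraries each, replicates A and B. The line called parental was the bulk of barcoded CT26 cells recovered from engrafted tumours. B04 and B64 were each grown from a single cell of such a tumour, carried different barcodes, and were isolated as lines resistant to immune checkpoint blockade (ICB). No library had a treatment of its own, and the cells were grown in RPMI medium. The study's discussion places the isolation of the clones after ICB treatment, so their differences may predate it or have been induced by it. Its isolation methods name no treatment of those tumours. Each resistant line is 1 clone, so a difference from the parental line is a difference of that clone. The sample labels call the samples tumours, whereas the study's methods describe cultured lines in duplicates. The labels do not say that the duplicates were separate cultures, so p-values here measure the spread between these libraries, which may be technical.

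Integrins are receptors for the extracellular matrix and for other cells, and each is a pair of an alpha and a beta chain. The alpha chain largely sets the ligand: α3 and α6 bind laminins, α5 and αv bind proteins with an RGD motif such as fibronectin and vitronectin, and α2 binds collagens. The β1 chain pairs with many alpha chains. The β4 chain pairs with α6 in hemidesmosomes, the anchors of epithelial cells to laminin. The β3 and β5 chains pair with αv, and β7 pairs with α4 or αE and is best known from lymphocytes that home to the gut. Inside the cell the short beta tails recruit talin and kindlin, which switch the receptor on and link it to actin.

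The coding sequence of the tail motifs is shown first, because these tails connect the receptors to the inside of the cell. The sequences were read from GENCODE M21 transcripts on GRCm38, the mm10 assembly, which is a C57BL/6J genome and not that of CT26. The last 100 codons of each complete coding transcript were searched for the GFFKR motif of alpha chains, also accepting arginine for its lysine, or for the NPxY motif of beta chains, the site of talin or kindlin binding, also accepting phenylalanine for its tyrosine. Every sequence below is coding, runs 5′ to 3′ on the gene's strand and is spliced, and the capitals mark the codons of the motif. Exons are numbered in the longest complete coding transcript that held the motif. The motif of the 4 alpha chains that were well measured, and its 2 copies in β1 and in β7, read as follows.
Itga3: tggaagtgcGGCTTCTTCAAGCGAgcccgc
Itga6: tggaagtgtGGATTCTTTAAGCGCtctagg
Itga5: tacaagctcGGCTTCTTCAAACGTtccctc
Itgav: tacaggatgGGCTTTTTCAAACGTgtccga
Itgb1, nearer the membrane: acgggtgaaAATCCTATTTACaagagt
Itgb1, nearer the end: actgtggtcAATCCGAAGTATgaggga
Itgb7, nearer the membrane: caggacaacAATCCTCTCTACaaaagt
Itgb7, nearer the end: accactgtcAACCCCCGCTTCcaaggg

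The alpha motifs lay at the junction of exons 24 and 25 in Itga3 (chr11:95046567-95046926, minus strand), of exons 25 and 26 in Itga6 (chr2:71849501-71855877, plus strand), of exons 29 and 30 in Itga5 (chr15:103345329-103345957, minus strand) and of exons 29 and 30 in Itgav (chr2:83802997-83803263, plus strand). The motif nearer the membrane lay across exons 15 and 16 in Itgb1 (chr8:128726184-128732046, plus strand) and across exons 14 and 15 in Itgb7 (chr15:102216244-102216474, minus strand). The motif nearer the end lay within exon 16 of Itgb1 (chr8:128732056-128732082) and within exon 15 of Itgb7 (chr15:102216208-102216234). Itgb5 held 1 copy, atggcctcaAACCCCCTGTACagaaag, in 2 of its 3 complete coding transcripts, across exons 14 and 15 (chr16:33947879-33948680, plus strand). None of the 6 complete coding transcripts of Itgb4 held the motif in this window, which says only that these letters are not there.

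Promoters of 7 of the 10 subunits were found in a RefSeq table on GRCm38.p6, each 300 bases long with 250 before the start of transcription and 50 after it. Those of the 2 most abundant beta chains and of Itga3 are shown, since they carry very different numbers of CpG dinucleotides, which are in capitals. The Itgb1 promoter lies at chr8:128685404-128685703 on the plus strand and that of Itgb7 at chr15:102231886-102232185 on the minus strand. Itga3 had 2 promoters, and the one shown lies at chr11:95076665-95076964 on the minus strand.
Itgb1: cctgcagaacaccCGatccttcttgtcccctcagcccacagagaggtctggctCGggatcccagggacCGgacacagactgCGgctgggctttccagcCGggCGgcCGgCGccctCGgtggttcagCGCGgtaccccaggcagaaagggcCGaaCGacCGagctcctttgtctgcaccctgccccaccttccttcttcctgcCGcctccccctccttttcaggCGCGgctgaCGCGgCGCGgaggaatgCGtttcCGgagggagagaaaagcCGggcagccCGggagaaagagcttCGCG
Itga3: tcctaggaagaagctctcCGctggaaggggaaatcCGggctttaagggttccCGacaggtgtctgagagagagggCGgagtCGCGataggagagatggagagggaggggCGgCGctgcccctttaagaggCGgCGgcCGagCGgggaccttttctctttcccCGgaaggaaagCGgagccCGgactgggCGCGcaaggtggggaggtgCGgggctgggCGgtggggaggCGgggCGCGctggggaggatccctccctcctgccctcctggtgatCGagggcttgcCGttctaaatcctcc
Itgb7: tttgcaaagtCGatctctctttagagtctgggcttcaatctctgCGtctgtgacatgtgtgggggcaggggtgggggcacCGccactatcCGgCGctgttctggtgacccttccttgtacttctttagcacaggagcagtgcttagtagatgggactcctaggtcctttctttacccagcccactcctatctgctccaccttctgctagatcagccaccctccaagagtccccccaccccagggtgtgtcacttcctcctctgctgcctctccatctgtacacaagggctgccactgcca

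The Itgb1 promoter held 27 CpG and the one shown for Itga3 held 24, while that of Itgb7 held 5. The other Itga3 promoter (chr11:95069149-95069448, minus strand) also held 5, so the high number belongs to 1 of its 2 starts. The median over 32851 promoters was 7, with quartiles of 3 and 20, and 84.5% of promoters had fewer CpG than that of Itgb1 against 38.0% for Itgb7. The letters GGGCGG were searched on both strands and were found in 35.7% of promoters. They were found 3 times in the Itga3 promoter shown and 1 time in its other one, 1 time in that of Itgb1 and 0 times in that of Itgb7. The letters TATAAA were found in 13.6% of promoters and in none of the members' promoters, which included 2 starts of Itga3. These matches describe the sequence only.

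Library totals ranged from 19409204 to 23472012 expected counts, the read numbers per gene that RSEM estimates. The libraries also differed in fragment length, taken as RSEM length minus effective length. Both parental libraries and B04 replicate A had 271.8 to 277.3 bases, and B04 replicate B and both B64 libraries had 220.8 to 246.2 bases. Fragment length and line therefore cannot be told apart between the parental line and B64, while B04 had a library in each class. All 6 mesenchymal markers were at 1 TPM or more in every line, led by Vim at 2041.67 to 3798.74 TPM. TPM is a transcript level scaled by gene length and by library. Of 8 epithelial markers only Krt18 and Krt20 reached 1 TPM in any library, and Vil1 was at 0 in all 6, so the label colon carcinoma was carried by few epithelial markers. The 8 summed to 22.4 to 24.1 TPM in the parental line, 24.3 to 25.4 in B04 and 45.7 to 48.2 in B64. Endothelial markers summed to at most 0.1 TPM, platelet markers to 1.39 to 3.6 TPM (highest single value Gp9, 1.55 TPM), fibroblast and pericyte markers to 8.35 to 12.4 TPM (mostly Pdgfrb) and erythroid markers to 0 to 2.45 TPM (mostly Hba-a2).

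Of the 10 subunits 8 were well measured, with levels from 17.89 TPM (Itgb4 in B64) to 353.87 TPM (Itgb7 in B64), and Itga2 and Itgb3 were barely detected. Itgb7 and Itgb1 had the highest TPM in every line and Itga6 was the highest alpha chain. In the parental line the order of TPM was Itgb7 (235.9), Itgb1 (211.9), Itga6 (94.8), Itgb5 (48.7), Itgav (44.1), Itgb4 (30.0), Itga3 (26.8) and Itga5 (20.4), as means of n = 2, and no neighbours overlapped between libraries. In B04 Itga3 moved up to the fifth place (44.5 TPM), and Itgb4 (34.49 to 42.98 TPM) and Itgav (34.57 to 35.51 TPM) overlapped. In B64 Itgb4 was the lowest of the 8 (17.9 TPM), and Itgb5 (44.3 to 45.13 TPM) and Itgav (40.07 to 44.58 TPM) overlapped. The order of the levels depended on the length used. Per kilobase of the longest coding transcript Itgav ranked 7 and Itgb4 was the lowest of the 8 in every line. The Itgb4 means were then 143.6 (parental), 203.2 (B04) and 94.3 (B64) normalised counts. The lead of Itgb7 over Itgb1 in the parental line also depended on the length. Per kilobase of RSEM length the parental libraries of Itgb7 and Itgb1 overlapped, and per kilobase of the longest coding transcript the Itgb7 to Itgb1 ratio was 0.814 in the parental line, 1.21 in B04 and 1.31 in B64.

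**Figure D1:**
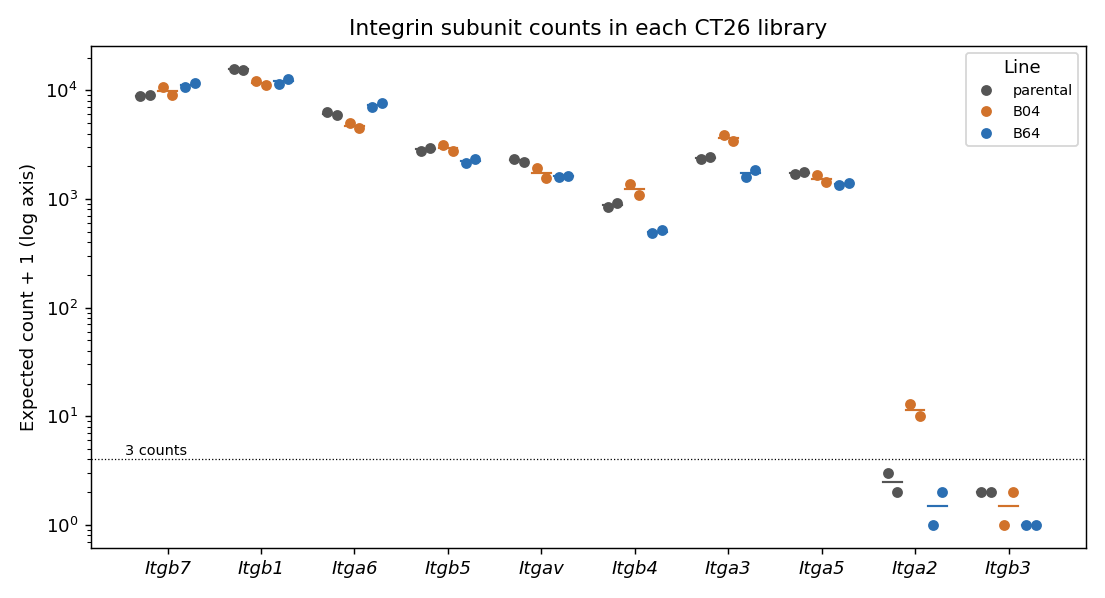
Expected counts of the 10 integrin subunits, plus 1, on a log axis for each of the 6 libraries, not scaled for depth or gene length. Points are libraries, short bars are line means (n = 2), and the dotted line marks 3 counts. Itga2 and Itgb3 lie far below the other 8 subunits, and Itga2 exceeds 3 counts in the B04 libraries only.

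The question for each subunit was whether a resistant clone differed from the parental line, and the clones from each other. Both clones were set against the same parental libraries. Counts were divided by DESeq2 size factors to give normalised read counts, and a gene was called at an adjusted p below 0.05 in DESeq2, adjusted over all genes tested. In B04 against the parental line 24.1% of 13218 genes tested were called (11.2% higher and 12.9% lower), and 6 of the 9 subunits tested were, 3 of them higher and 3 lower. In B64 against the parental line 16.3% of genes were called (8.87% higher and 7.45% lower), and again 6 of 9 subunits, 2 higher and 4 lower. In B64 against B04 24.3% of 12855 genes were called (13.1% higher and 11.1% lower), and 6 of 8 subunits, 3 higher and 3 lower. Genes with many counts are called more often. Among genes with a mean normalised count of 500 or more, where the 8 well-measured subunits lie, the shares were 34.0%, 22.4% and 33.9%. The median log2 difference of the tested subunits was 0.07 in B04, -0.16 in B64 and 0.05 in B64 against B04, with 0.00 over all genes tested in each.

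**Figure D2:**
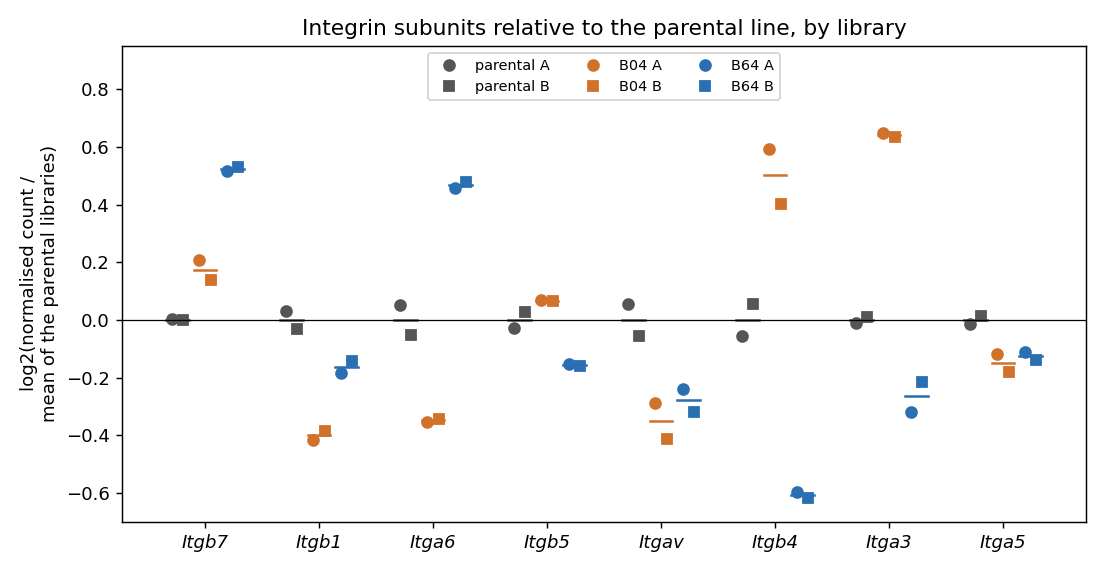
log2 of the normalised count over the mean of the parental libraries for 8 integrin subunits. Circles are replicate A, squares replicate B, and bars line means (n = 2). Itga3 and Itgb4 lie above 0 in B04 and below 0 in B64, and Itga6 does the reverse.

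Among the 8 well-measured subunits, Itga3, Itga6 and Itgb4, which are chains of laminin receptors, differed most between the clones. Itgb1, which joins α3 or α6 in such receptors, had a log2 difference of 0.24, below that of Itgb7 (0.35). Itga3 was higher in B04 than in the parental line and lower in B64, and Itgb4 followed the same order. Itga6 took the opposite order, lowest in B04 and highest in B64.

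Itga3 (ENSMUSG00000001507, chr11:95044474-95076801, minus strand) encodes the α3 chain, which joins β1 in a laminin receptor. Normalised counts for Itga3 were 2241.8 and 2271.7 (parental), 3535.1 and 3504.5 (B04), and 1808.9 and 1945.0 (B64). Each line's libraries stood apart from those of the other lines, and B04 was the high line. The log2 difference from the parental line was 0.64 (SE 0.07, DESeq2 adjusted p = 1.24e-16), or 1.56-fold, in B04. In B64 it was -0.27 (SE 0.08, DESeq2 adjusted p = 0.00433). The adjusted p in B64 was 0.0598 without parental replicate A, 0.0747 without parental replicate B, 0.226 without B64 replicate A and 0.752 when fragment-length class was a block. With that block the B64 difference was -0.25, and 2.64% of all genes were called against 16.3% without it. The clones differed by -0.91, B64 minus B04 (SE 0.07, DESeq2 adjusted p = 2.98e-32), a ratio of 0.533. In bulk RNA, fewer cells that express a gene and less of its RNA per cell cannot be told apart.

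Itga6 (ENSMUSG00000027111, chr2:71745616-71858416, plus strand) encodes the α6 chain, which joins β1 or β4 in laminin receptors. Normalised counts for Itga6 were 5983.2 and 5571.3 (parental), 4523.8 and 4548.9 (B04), and 7935.4 and 8053.4 (B64). B64 was the high line and B04 the low line, without overlap. Its log2 difference from the parental line was -0.35 in B04 (SE 0.06, DESeq2 adjusted p = 1.83e-07) and 0.47 in B64 (SE 0.06, DESeq2 adjusted p = 3.97e-13). Between the clones it was 0.82 (SE 0.06, DESeq2 adjusted p = 1.55e-39), or 1.76-fold higher in B64. Each of these 3 calls was kept under all 16 alternatives. The locus overlaps 2 annotated genes on the opposite strand, and the sources used here do not say that strand was kept, so reads from the shared bases cannot be told apart.

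Itgb4 (ENSMUSG00000020758, chr11:115974709-116008412, plus strand) encodes the β4 chain, whose only known partner is α6. Normalised counts for Itgb4 were 797.5 and 862.3 (parental), 1252.2 and 1096.3 (B04), and 548.2 and 541.4 (B64). The lines did not overlap, and the 2 B04 libraries were further apart than those of the other lines. Its log2 difference was 0.50 in B04 (SE 0.11, DESeq2 adjusted p = 1.29e-04) and -0.61 in B64 (SE 0.12, DESeq2 adjusted p = 9.47e-06). The rise in B04 missed the threshold without B04 replicate A (0.40, adjusted p = 0.0664) and was 0.29 with RSEM effective length as an offset (adjusted p = 0.168). In B64 the difference was -0.42 when fragment-length class was a block (adjusted p = 0.647). The clones differed by -1.11 (SE 0.12, DESeq2 adjusted p = 4.20e-19), the largest difference among the well-measured subunits, and this call was kept under all 16 alternatives. The RSEM length of Itgb4 was 1574.2 to 1946.2 bases against 5779 for its longest coding transcript, so its TPM rests on shorter transcripts, and the gene overlaps 1 opposite-strand gene.

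The balance of these subunits on the TPM scale is given next. The ratio of Itga6 to Itga3 was 3.67 and 3.41 (parental), 1.75 and 1.73 (B04), and 5.3 and 5.93 (B64). The ratio of Itga6 to Itgb4 was 3.12 and 3.19 (parental), 1.78 and 2.27 (B04), and 7.4 and 7.61 (B64). Neither ratio overlapped between lines. The size of the Itga6 to Itgb4 ratio rests on the length used for Itgb4. Itga3 and Itga6 together made up 64.8% and 64.9% of the summed TPM of 18 alpha genes in the parental line, 68.1% and 68.9% in B04, and 72.0% and 71.4% in B64.

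Itgb1 (ENSMUSG00000025809, chr8:128685654-128733200, plus strand), the shared beta chain, had the highest counts of all subunits. Normalised counts for Itgb1 were 15070.5 and 14422.6 (parental), 11056.8 and 11280.1 (B04), and 12968.9 and 13356.4 (B64). The parental line was high, B04 low and B64 between them. The log2 difference was -0.40 in B04 (SE 0.05, DESeq2 adjusted p = 7.36e-13), which was kept under all 16 alternatives. In B64 it was -0.16 (SE 0.05, DESeq2 adjusted p = 0.0138), and this call was lost without parental replicate A (0.228), without B64 replicate A (0.293), without its replicate B (0.103) and in 4 other alternatives, the values in brackets being adjusted p. B64 exceeded B04 by 0.24 (SE 0.05, DESeq2 adjusted p = 6.50e-05), a call lost in both limma settings on TPM.

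Itgav (ENSMUSG00000027087, chr2:83724397-83806916, plus strand) encodes αv, the partner of β1, β3 and β5. Normalised counts for Itgav were 2215.1 and 2053.8 (parental), 1746.6 and 1602.1 (B04), and 1808.9 and 1709.5 (B64). Both clones lay below the parental libraries, and the clones overlapped. The log2 difference was -0.35 in B04 (SE 0.09, DESeq2 adjusted p = 4.95e-04) and -0.28 in B64 (SE 0.09, DESeq2 adjusted p = 0.0111). In B04 the adjusted p was 0.0621 without parental replicate A, 0.0662 without B04 replicate B and 0.0916 when fragment-length class was a block. In B64 it was 0.281 without parental replicate A, 0.0803 without B64 replicate A and 0.265 without its replicate B, and the difference was -0.06 on log2(TPM + 1) and -0.10 with the effective-length offset. The gene overlaps 2 opposite-strand genes.

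The other RGD-binding chains did not pass the test against the parental line. Itga5 (ENSMUSG00000000555, chr15:103344286-103366763, minus strand), which forms the fibronectin receptor with β1, had normalised counts of 1619.8 and 1651.7 (parental), 1506.7 and 1442.3 (B04), and 1515.5 and 1486.6 (B64). The 95% interval of its log2 difference was -0.32 to 0.02 in B04 and -0.29 to 0.04 in B64, and the parental libraries lay above all 4 of the clones. Itgb5 (ENSMUSG00000022817, chr16:33829665-33949338, plus strand), a vitronectin receptor chain, had normalised counts of 2658.7 and 2766.5 (parental), 2842.9 and 2838.9 (B04), and 2442.0 and 2428.6 (B64), with each line apart from the others. Its 95% interval was -0.07 to 0.20 in B04 and -0.29 to -0.02 in B64, where the adjusted p was 0.128 in DESeq2. Itgb5 was lower in B64 than in B04 (log2 difference -0.22, SE 0.07, DESeq2 adjusted p = 0.00997), with adjusted p of 0.133, 0.101, 0.128 and 0.143 when B04 replicate A, B04 replicate B, B64 replicate A or B64 replicate B was left out. Itgb3 (ENSMUSG00000020689, chr11:104608000-104670476, plus strand), the αv partner of platelets and endothelium, had expected counts of 1 and 1 in the parental line, 0 and 1 in B04, and 0 and 0 in B64. All were at or below 3 counts, so no fold is given, and 3 counts would correspond to 0.0298 to 0.0371 TPM.

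Itgb7 (ENSMUSG00000001281, chr15:102215995-102231944, minus strand) rose in both clones and more so in B64. Normalised counts for Itgb7 were 8450.1 and 8431.3 (parental), 9746.2 and 9281.0 (B04), and 12067.3 and 12201.0 (B64). The 3 lines did not overlap, with the parental line low and B64 high. In B64 the log2 difference was 0.52 (SE 0.05, DESeq2 adjusted p = 1.33e-20), or 1.44-fold, and it was kept under all 16 alternatives. In B04 it was 0.17 (SE 0.05, DESeq2 adjusted p = 0.00734). The B04 value was 0.10 on log2(TPM + 1) (limma adjusted p = 0.392) and 0.03 with the effective-length offset (adjusted p = 0.893), and its adjusted p was 0.0668 without parental replicate A, 0.075 without parental replicate B and 0.207 without B04 replicate A. B64 exceeded B04 by 0.35 (SE 0.05, DESeq2 adjusted p = 1.08e-09).

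The known partners of β7 were at or near 0. Itga4, the α4 chain, had 0 counts in all 6 libraries, where 3 counts would correspond to 0.0409 to 0.0522 TPM. Itgae, the αE chain, had expected counts of 8 and 8 in the parental line, 3 and 3 in B04, and 8 and 1 in B64, or 0.02 to 0.13 TPM. Itgb7 itself was at 231.91 to 353.87 TPM. Leukocyte markers summed to 14.1 to 15.6 TPM in the parental line, 14.2 to 15.3 in B04 and 39.8 to 43.2 in B64, mostly through Cd68, which was at 39.62 and 36.06 TPM in B64 and at 10.08 to 11.99 TPM in the other 4 libraries. Coro1a, another of these markers, was at 1 TPM or more in both B64 libraries, unlike in the parental line or B04. Cd3e, Cd8a and Cd52, markers of lymphocytes, were at 0 in all 6 libraries, and Ptprc, the pan-leukocyte CD45, did not exceed 0.01 TPM. Itgb2, the beta chain of the leukocyte integrins, was at 2.16 to 4.23 TPM and did not pass the test in any comparison.

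Itga2 (ENSMUSG00000015533, chr13:114833081-114932100, minus strand), a collagen-binding alpha chain, was barely detected. Its expected counts were 2 and 1 (parental), 12 and 9 (B04), and 0 and 1 (B64). The B04 libraries were the high ones, without overlap. The summed counts of 21 in B04 and 3 in the parental line gave a ratio of 7.13 after scaling for depth, with an exact 95% interval of 2.13 to 37.3 that covers counting error only. B64, with a summed count of 1, had a ratio of 0.054 to B04, with an interval of 0.0013 to 0.336. Across all genes the B04 difference did not pass the test (DESeq2 adjusted p = 0.196), and with the effective-length offset its sign turned (-0.15). The RSEM length of this gene varied from 688.3 to 7108 bases between libraries, so its TPM is not compared here.

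**Figure D3:**
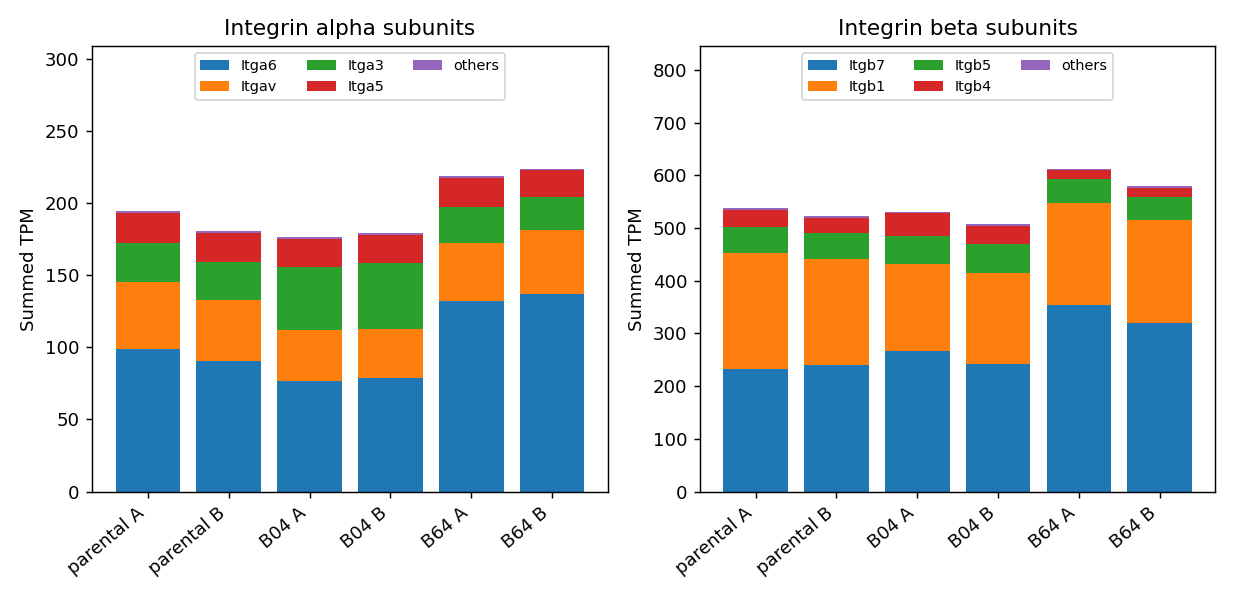
Summed TPM of 18 integrin alpha genes (left) and 9 integrin beta genes (right) in each library, stacked by subunit, with all remaining subunits as others. The alpha sum is highest in the B64 libraries through Itga6, and Itgb7 takes a larger part of the beta sum in B64 (57.7% and 55.1%) than in the parental line (43.1% and 45.9%).

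Over the 18 alpha genes the summed TPM was 194.5 and 180.4 (parental), 176.4 and 179.2 (B04), and 218.4 and 223.8 (B64). Over the 9 beta genes it was 538.2 and 522.9 (parental), 531.3 and 507.5 (B04), and 612.9 and 579.6 (B64). The beta to alpha ratio overlapped between the lines, from 2.59 to 3.01 over the 6 libraries. Without Itgb7 it was 1.57 for both parental libraries, 1.5 and 1.48 (B04), and 1.19 and 1.16 (B64), with B64 below the other lines. These are mRNA levels, and no receptor protein was measured in these libraries. The share of Itgb7 in the beta sum was 50.1% and 47.6% in B04.

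The comparisons were repeated within fragment-length classes where the design allowed it. Among long-fragment libraries, B04 replicate A differed from the parental mean by 0.65 for Itga3, 0.59 for Itgb4, 0.21 for Itgb7, -0.35 for Itga6, -0.29 for Itgav and -0.42 for Itgb1, as log2 of normalised counts. Among short-fragment libraries, the B64 mean differed from B04 replicate B by -0.90 for Itga3, -1.01 for Itgb4, 0.81 for Itga6, 0.39 for Itgb7, 0.22 for Itgb1 and -0.22 for Itgb5. Each of these had the sign of the value from all libraries. The same libraries enter that value, so the shared sign is not an independent check. When fragment-length class was a block, 12.8% of genes were called in B04 against the parental line, 2.64% in B64 against the parental line and 13.4% in B64 against B04. The subunits called were then 5, 2 and 5, and in B64 against the parental line the 2 were Itga6 and Itgb7.

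**Figure D4:**
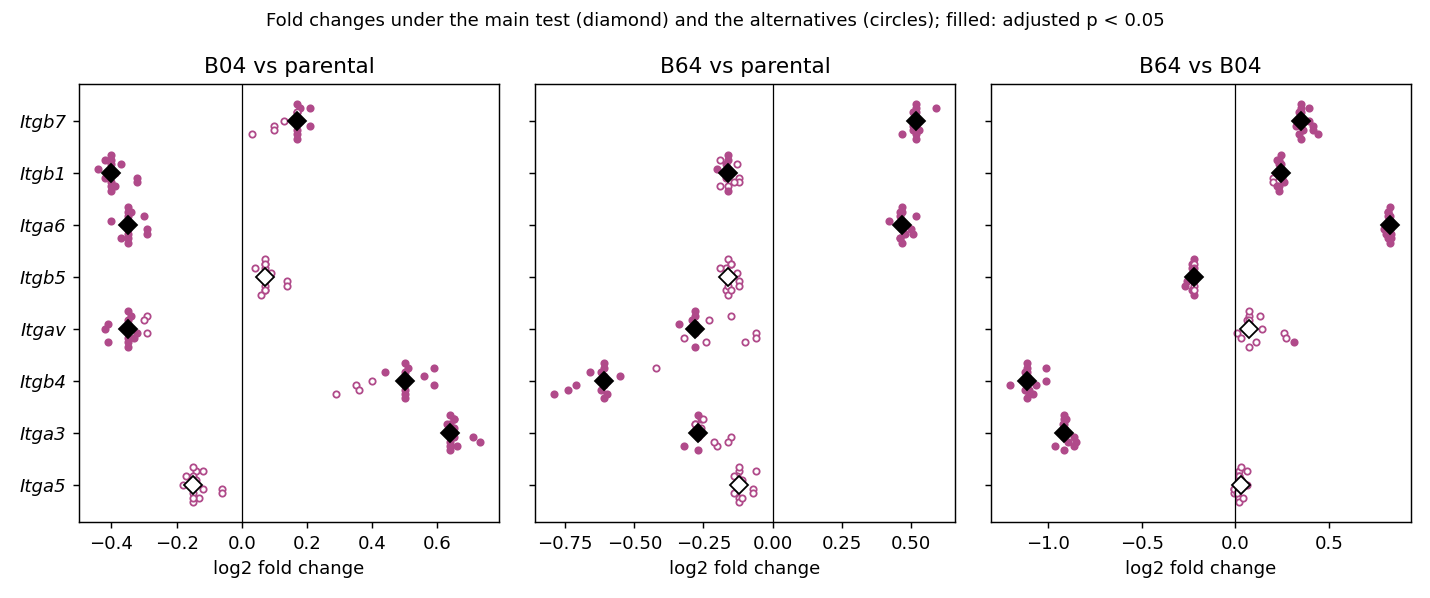
log2 fold changes of 8 integrin subunits in the 3 comparisons under DESeq2 on all libraries (diamonds) and under the 16 alternatives (circles), filled where the adjusted p was below 0.05. Itga3, Itga6 and Itgb4 keep filled symbols on their side of 0 between B64 and B04, while Itgav, Itgb1 and Itga3 have open circles in B64 against the parental line.

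Of the remaining 17 integrin subunit genes, 5 were tested in each comparison. DESeq2 called 0 of them in each, with 0 at an unadjusted p below 0.05. Neither edgeR, over 2 of them, nor limma on log2(TPM + 1), over 1 of them, called any, and 1 was at an unadjusted p below 0.05 in limma, in B64 against the parental line. Itgb2, at the level given above, had the highest TPM of the 17.

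Adaptors link the tails to actin and signalling. Of 32 such genes, 14 of 31 tested were called in B04 against the parental line (5 higher, 9 lower), 8 of 31 in B64 (6 higher, 2 lower) and 15 of 30 in B64 against B04 (8 higher, 7 lower). Over all genes tested the shares called were 24.1%, 16.3% and 24.3%, and over genes with a mean normalised count of 500 or more they were 34.0%, 22.4% and 33.9%. Their median log2 differences were -0.11, -0.07 and -0.08. Parvg, a parvin of the kinase complex on beta tails, rose in B04 by 1.23 (SE 0.11, DESeq2 adjusted p = 1.09e-25) and in B64 by 1.14 (SE 0.11, adjusted p = 1.26e-21). Its mean normalised count was 483.4 in the parental line, 1133.6 in B04 and 1064.9 in B64. Nedd9, a docking protein of focal adhesions, rose in B04 from 529.6 to 1197.6 (1.18, SE 0.12, adjusted p = 4.73e-22). It was at 497.9 in B64, and the log2 difference of B64 from B04 was -1.27 (SE 0.12, adjusted p = 6.50e-25). Zyx (-0.48, SE 0.15, DESeq2 adjusted p = 0.00656), a focal adhesion protein, and Elmo1 (-0.67, SE 0.25, adjusted p = 0.0342), a Rac activator subunit, fell in B04. Neither passed the test in B64 (0.05 and -0.35). In TPM the Zyx libraries lay closer, at 18.9 and 16.32 in the parental line and 16.17 and 15.94 in B04. In B64 Tns3, a tensin that binds beta tails, fell by 0.67 from 3068.8 to 1923.9, and Fermt2, a kindlin, fell by 0.43. On the TPM scale the Fermt2 libraries overlapped, at 21.16 and 26.76 in the parental line and 30.92 and 16.76 in B64. Tns1, another tensin, rose in both clones, by 0.81 in B04 (DESeq2 adjusted p = 1.02e-12) and by 0.53 in B64, and was lower in B64 than in B04 (-0.28). Against B04, B64 had more Lims2 (1.29) and Parvb (0.67) and less Tns3 (-0.58). Parvb fell in B04 by 0.41 and rose in B64 by 0.26, while Lims2 did not pass the test against the parental line in either clone.

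Of 9 genes listed as integrin inhibitors, 7 were tested. The list is mixed in role, since Fblim1, or migfilin, displaces filamin from beta tails and favours activation, and Krit1 binds the inhibitor Itgb1bp1. In B04 5 were called (4 higher, 1 lower), with a median of 0.40, in B64 1 was called, and between the clones 5 (1 higher, 4 lower in B64), against 24.1%, 16.3% and 24.3% of all genes tested. Over genes with a mean normalised count of 500 or more, where most of the tested inhibitors lie, the shares were 34.0%, 22.4% and 33.9%. Shank1, a scaffold that sequesters Rap1, rose in B04 by 1.37 (SE 0.18, DESeq2 adjusted p = 1.20e-12), from a mean of 207.9 to 537.2 normalised counts, and was 229.2 in B64. Fblim1, 1 of the 4 called higher in B04, rose there by 0.57. Itgb1bp1, which binds the β1 tail, fell in B04 by 0.40. Dok1, which competes with talin, rose in B04 by 0.49 (DESeq2 adjusted p = 2.88e-05) and in B64 by 0.33, and the difference between the clones did not pass the test (-0.16, SE 0.10, adjusted p = 0.299). Sharpin, which binds alpha tails, rose in B04 by 0.40 and was lower in B64 than in B04 (log2 difference -0.39). Blocking on fragment-length class left 2, 0 and 1 of these genes called by DESeq2 in the 3 comparisons, with 5, 0 and 4 at an unadjusted p below 0.05. Without the block, edgeR called 5, 1 and 5 and limma on log2(TPM + 1) called 4, 0 and 2. No share over all genes is given for edgeR or limma, so these counts cannot be set against it.

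Of 15 tetraspanins and other surface partners, 14 were tested, and 8 were called in B04 (4 higher, 4 lower), 4 in B64 (2 higher, 2 lower) and 9 between the clones (5 higher, 4 lower in B64). The shares over all genes tested were 24.1%, 16.3% and 24.3%, and 34.0%, 22.4% and 33.9% over genes with a mean of 500 or more. Plaur, the urokinase receptor, fell in B04 by 1.28 (SE 0.09, DESeq2 adjusted p = 4.53e-47), from 2988 to 1234.2, and was 2620.2 in B64. Cd44, a hyaluronan receptor, fell in B04 by 0.70 (SE 0.06) and in B64 by 0.27 (SE 0.06). Cd9, a tetraspanin that associates with laminin receptors, rose in B64 by 0.49 (SE 0.06, DESeq2 adjusted p = 2.76e-14) and in B04 by 0.32 (SE 0.06, adjusted p = 1.38e-06). Cd47, a thrombospondin receptor, rose in B64 by 0.34 and in B04 by 0.25, and the difference between the clones did not pass the test (0.08, SE 0.07, DESeq2 adjusted p = 0.408). Slc3a2, the CD98 heavy chain that binds beta tails, fell in B64 by 0.18. In B04 Cd81 rose by 0.41 and Sdc1, a syndecan, by 0.44. Cd63, a lysosomal tetraspanin, was higher in B64 than in B04 by 0.63 (SE 0.06), having fallen in B04 by 0.53, while Cd81 (-0.33) and Tspan4 (-0.25) were lower. Of 5 hemidesmosome genes 2 were tested, and DESeq2 called 1 in B04, 0 in B64 (0 at an unadjusted p below 0.05) and 1 between the clones. Both had a mean above 500, where the shares over genes were 34.0%, 22.4% and 33.9%. With 2 genes the count does not describe the list. Plec, plectin, which joins β4 to keratin, rose in B04 by 0.24 and was lower in B64 than in B04 (log2 difference -0.28). Of the hemidesmosome genes edgeR called 1, 0 and 1 in the 3 comparisons, and limma on log2(TPM + 1) called 0 in each, with 2, 0 and 1 at an unadjusted p below 0.05. No share over all genes is given for these 2 tests.

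Of 42 ligand genes 34 were tested against the parental line, and 17 were called in B04 (7 higher, 10 lower) and 18 in B64 (6 higher, 12 lower). Between the clones 22 of 32 were called, 8 higher and 14 lower in B64. The shares over all genes tested were 24.1%, 16.3% and 24.3%, and over genes with a mean normalised count of 500 or more 34.0%, 22.4% and 33.9%. Thbs2, a matrix thrombospondin, had mean normalised counts of 1759.6 in the parental line, 409 in B04 and 4149.5 in B64, and its log2 differences were -2.10 (SE 0.10) in B04 and 1.24 (SE 0.09) in B64. Spp1, osteopontin, an RGD ligand of αv integrins, rose in B64 by 0.70 (SE 0.05, DESeq2 adjusted p = 1.68e-48), from 41004.7 to 66653.2. Of the fibrillar collagens, 2 of the 3 listed fell in B64, Col3a1 from 796.1 to 35.7 (log2 difference -4.49, SE 0.22) and Col1a1 from 1073.5 to 189.2 (DESeq2 adjusted p = 1.18e-63). Col1a2, the other one, is named after its values were seen and had by far the most counts of these collagens. Its mean was 28685 in the parental line and 27923.6 in B64 (-0.04, SE 0.05, DESeq2 adjusted p = 0.697), and it fell in B04 by 0.24. Thbs1, an RGD-bearing thrombospondin, fell in both clones, by 0.93 (SE 0.22) in B04 and by 2.24 (SE 0.25) in B64. Ccn2, a matricellular ligand, rose in B04 by 0.90 (SE 0.21) and fell in B64 by 0.86 (SE 0.23). Col6a1, a collagen VI chain, rose in B04 by 0.73 (SE 0.20) and fell in B64 by 0.61 (SE 0.22). The gene lists were chosen with earlier results of these data known, so their counts describe the lists and are not independent evidence.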

How the data were processed

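RNA was measured in 6 libraries of oligo(dT)-selected mRNA, sequenced as read pairs. Per the labels, the submitters' processing notes name STAR, RSEM and mm10, and the strand setting is not given in the sources used here. The authors deposited, for each gene, an RSEM expected count, which divides reads that match several genes and need not be whole, and a TPM value scaled by effective length and library. The deposited tables also gave RSEM length and effective length, and their FPKM was not used. Of 53801 identifiers 53620 (99.7%) had a symbol in GENCODE M21.

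Expected counts were rounded to whole numbers. DESeq2 (1.42.0, in R 4.3.3), as in the study's methods, gave a Wald test on all 6 libraries with the line as the only term, independent filtering and no shrinkage. The threshold for a call was a Benjamini-Hochberg adjusted p of 0.05. TPM was described without a test, except with limma on log2(TPM + 1) and log2(TPM + 0.1) for genes with a mean of at least 1. Alternatives were edgeR (version 4.0.16) quasi-likelihood, TMM factors, no independent filtering, at least 10 counts in 2 libraries, limma (version 3.58.1), an effective-length offset, the 2 lines alone, blocks for the replicate letter and for fragment-length class (limit 260 bases), and leaving out each library. Scaling by the longest coding transcript and the share called among genes with at least 500 counts were chosen after seeing the data. Groups and replicate letters came from sample titles. The tests were checked on counts simulated for B04 against the parental line. The exact intervals of the Itga2 ratios and the floors of 3 counts cover counting error only, and PCR copies are not independent molecules. The 95% intervals of the log2 differences of Itga5 and Itgb5 lie around the DESeq2 estimates and include the spread between libraries.

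The members and gene lists were chosen with earlier results of these data known. Named genes were the 10 members, Itga4 and Itgae, the markers of highest TPM in each marker list, and, per list and comparison, at most 2 higher and 2 lower called genes of largest change whose lines did not overlap and whose mean normalised count was 100 or more.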

Additional observations from a re-analysis of the deposited data

Results flagged for a closer look

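For 6 subunits the change from the parental line differed between the clones, tested directly as B64 against B04 in DESeq2, where the shared parental libraries cancel. The log2 difference, B64 minus B04, was -0.91 for Itga3, -1.11 for Itgb4, 0.82 for Itga6, 0.35 for Itgb7, 0.24 for Itgb1 and -0.22 for Itgb5. Itga3, Itga6 and Itgb4 lay on opposite sides of the parental libraries in the clones. With fragment-length class as a block, B64 against the parental line kept the call for Itga6 but not for Itga3 or Itgb4. The log2 difference was then -0.25 for Itga3 (DESeq2 adjusted p = 0.752) and -0.42 for Itgb4 (DESeq2 adjusted p = 0.647), against -0.27 and -0.61 without the block. Over all genes 2.64% were called with the block and 16.3% without it. Itgb7 and Itgb1 lay on the same side in both clones, and differed in size. Itgb5 did not pass the test against the parental line in either clone. The libraries of B64 and B04 did not overlap for any of the 6. The 6 were picked by the test on these same libraries, so the lack of overlap adds no support. Groups of 2 libraries are too small for a test of a library that stands apart.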

How the results depend on the processing

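Over 396 values of the subunits' fold changes under alternatives, 349 kept their direction and side of the threshold, 42 lost the call, 1 gained it and 4 turned sign. The 349 include values of Itga2 in B04 that had no adjusted p, and so kept their direction only. They also include fits that left out a library of the line not compared. None of the turned values had been called: Itga2 in B04 (-0.15 with the effective-length offset) and Itga5 in B64 against B04 (-0.01 with limma on log2(TPM + 1) and log2(TPM + 0.1) and without B04 replicate B, within a range of -0.01 to 0.06 when 1 library was left out). Of the subunits called in B64 against the parental line, 6 became 3 with both limma settings and with the effective-length offset, 2 with the fragment-length class block, and 3 to 6 when 1 library was left out (3 without parental replicate A or B64 replicate A, 4 without B64 replicate B). In B04 they stayed at 4 to 6 and in B64 against B04 at 5 to 7. Itgav passed in B64 against B04 with the effective-length offset (0.31). With the fragment-length class block, adaptors called fell to 9 in B04 and 3 in B64, inhibitors to 2, 0 and 1 in the 3 comparisons, and in B64 tetraspanins to 1 and ligands to 10. Per kilobase of the longest coding transcript the Itgb7 to Itgb1 ratio was 0.814, 1.21 and 1.31 in the parental line, B04 and B64, against 1.12, 1.5 and 1.73 in TPM. The share of all genes called is given only for the main DESeq2 test and the fragment-length class block. Counts of calls under the other settings therefore have no background beside them. The causes were not tested.

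The replicate block left 6 subunits called in each comparison and moved the inhibitors called in B64 against B04 from 5 to 3. The letters were not taken as pairs: deviations of same-letter libraries correlated at 0.111 for parental and B04, 0.0131 for parental and B64 and -0.0452 for B04 and B64, over 11996 genes. Depth limits Itga2 and Itgb3, which rest on at most 12 counts per library.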
